A study of Drosophila melanogaster with 3 samples.

Results

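The genes of the mitochondrial ribosome were scored for binding of CG4820, a fly protein listed as uncharacterized by RefSeq and tagged here with green fluorescent protein (GFP), in embryos of Drosophila melanogaster. The members are the protein-coding genes whose symbol starts with mRpL (large subunit) or mRpS (small subunit), 73 of 13945 protein-coding genes, with 47 in the large and 26 in the small subunit. An anti-GFP antibody was used for chromatin immunoprecipitation and sequencing (ChIP-seq) of whole embryos of mixed sex, aged 0 to 16 h, in 3 biological replicates of 1 transgenic line (CG4820-GFP) that carries CG4820 with GFP (labelled eGFP) at its C terminus. All 3 samples carry this fusion and form 1 group, so no groups were compared. The tagged copy is the only form of CG4820 that was measured, and a whole embryo mixes all cell types and stages, so a peak does not say in which cells the protein was bound.

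Mitochondria make a small set of respiratory chain subunits on their own ribosomes. The ribosomal RNAs come from mitochondrial DNA, while all the ribosomal proteins are encoded in the nucleus, translated in the cytosol and imported. Many of these proteins have counterparts in the bacterial ribosome and others occur only in mitochondria. Their genes are used in nearly every cell, and many such housekeeping genes in flies start head to head with a neighbour, so that 1 stretch of DNA serves as the promoter of both. Such a neighbour, on the other strand with its transcription start site (TSS) upstream of the member's, is called divergent here, up to a distance of 1000 bp and with an overlap of at most 100 bp.

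The sequences below show what lay under 5 of the 6 strongest member peaks, and under that of mRpL32, which has a lower signal and is shown for the TATCGAT in its shared stretch. Whole stretches are printed only where they are short, so their length does not stand for that of all members, and mRpL41, with 762 bp between the starts, is not shown. The first 4 run, on the member's strand, from the start site of the neighbour to that of the member, and capitals mark the 21 bases centred on the summit, the point of highest enrichment in a peak. They lie on dm6 at chr2L:4945361-4945579 (mRpL24 and betaggt-I, minus strand), chr3R:15229408-15229665 (mRpS10 and Art3, plus strand), chr2L:4850419-4850641 (mRpS2 and Mon1, minus strand) and chr3R:31252608-31252872 (mRpL32 and qless, plus strand). The letters are those of the RefSeq genome, and all 4 summits were in intergenic sequence.
mRpL24: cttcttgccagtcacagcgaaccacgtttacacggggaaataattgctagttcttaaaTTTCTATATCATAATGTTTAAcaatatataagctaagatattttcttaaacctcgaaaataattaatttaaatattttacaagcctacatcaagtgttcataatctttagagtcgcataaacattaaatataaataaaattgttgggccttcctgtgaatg
mRpS10: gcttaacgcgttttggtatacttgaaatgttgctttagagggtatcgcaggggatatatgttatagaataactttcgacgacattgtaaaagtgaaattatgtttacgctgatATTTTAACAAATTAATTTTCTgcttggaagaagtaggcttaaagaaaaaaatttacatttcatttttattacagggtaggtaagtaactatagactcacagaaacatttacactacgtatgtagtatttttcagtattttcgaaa
mRpS2: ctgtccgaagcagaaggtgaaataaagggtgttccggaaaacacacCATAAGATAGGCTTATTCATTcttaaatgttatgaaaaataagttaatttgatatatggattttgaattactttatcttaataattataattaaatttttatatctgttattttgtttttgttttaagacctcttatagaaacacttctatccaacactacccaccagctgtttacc
mRpL32: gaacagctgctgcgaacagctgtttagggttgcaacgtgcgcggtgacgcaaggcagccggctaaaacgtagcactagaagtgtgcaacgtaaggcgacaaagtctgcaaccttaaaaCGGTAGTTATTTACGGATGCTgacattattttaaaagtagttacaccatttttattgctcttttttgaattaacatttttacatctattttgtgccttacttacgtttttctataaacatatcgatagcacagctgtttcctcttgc
For mRpS23 (chr2L:13835408-13835508, minus strand) and mRpL23 (chr3L:2373560-2373660, minus strand) the stretch between the starts was too long to print or did not hold the summit, and 101 bases around the summit are shown instead.
mRpS23: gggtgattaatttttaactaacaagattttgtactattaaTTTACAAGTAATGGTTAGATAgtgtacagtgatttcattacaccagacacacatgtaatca
mRpL23: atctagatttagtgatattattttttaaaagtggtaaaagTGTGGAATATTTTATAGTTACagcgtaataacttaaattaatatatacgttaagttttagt
The printed stretch of mRpL32 holds 1 copy of TATCGAT, the core of the DRE promoter element, between the summit and the start of mRpL32, along with TATAAA. The stretch of mRpS10 holds CGATA, and those of mRpL24 and mRpS2 hold TATAAA and TAATTA. In these 4 stretches the 21 capitals hold none of the 10 motifs that were searched, while those of mRpL23 hold TATAAA, read on the opposite strand.

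CG4820 peaks lay at the promoters of 29 of the 73 members. The measurement is a list of peaks, and a gene is called bound when a summit of the authors' reproducible (optimal) list of 4876 peaks lies within 500 bp of any annotated TSS of the gene. By this rule 39.7% of the members were bound (29 of 73, 95% Wilson interval 29.3 to 51.2%), beside 19.9% of all protein-coding genes. The large subunit had 17 bound genes of 47 (36.2%, interval 24.0 to 50.5%) and the small subunit 12 of 26 (46.2%, 28.8 to 64.5%), and these intervals overlap. In each replicate the same number of highest-signal candidates, 4876, put a summit at 29, 26 and 28 members in replicates 1, 2 and 3, a share of 37.9% ± 2.09 (SD, n = 3). The same lists gave 20.1%, 20.0% and 18.5% of all protein-coding genes, so the members' share was above the share of all genes in each replicate. The pooled list of candidates, which the authors label as peaks and background, had a summit at 53 of 73 members (72.6%) and at 44.9% of all genes. Sequencing depth is unknown, and the intervals cover counting error only.

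The optimal list is exactly the 4876 pooled candidates of highest signal, so a bound gene is one whose candidate reached a signal of 100.8. The signal is the authors' own enrichment value and is compared only within a list. At bound members the highest promoter signal had a median of 184.0 and ran from 101.0 to 2277.3, while over all bound genes the median was 191.8. Just inside the limit were mRpS11 (101.0) and mRpL51 (101.1), and just outside were mRpS21 (99.0, pooled rank 5009) and mRpL13 (97.4, rank 5110). The farthest summit that counted was 413 bp from a TSS (mRpS25), no unbound member had an optimal summit beyond that and up to 1000 bp, and the nearest one lay 1260 bp away (mRpL27).

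**Figure D1:**
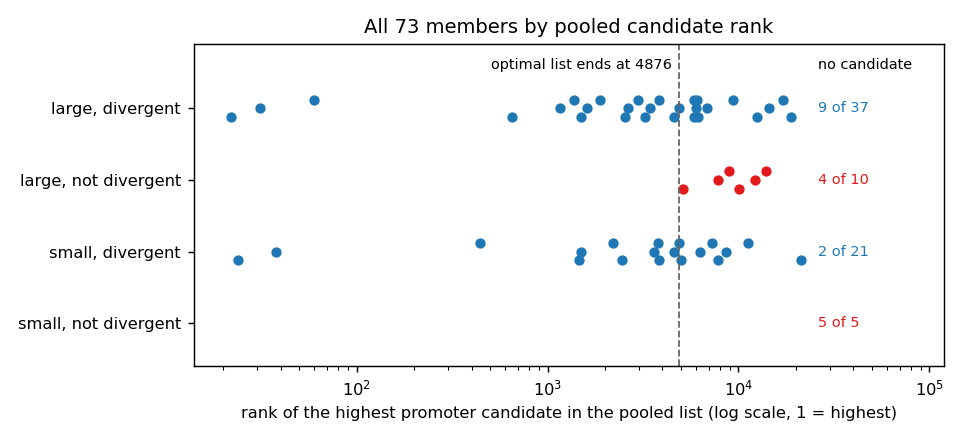
Each point is a member with a candidate summit within 500 bp of a TSS, placed by the rank of its highest candidate in the pooled list (log scale), in rows by subunit and by whether the gene has a divergent neighbour, with members lacking a candidate counted at the right. The 29 bound members lie left of the dashed line at rank 4876, and none of them is in the rows without a divergent neighbour.

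The strongest member peak was at mRpL24, whose bacterial counterpart is a large-subunit protein near the exit of the nascent chain. Its summit lay 150 bp upstream of its own TSS and 68 bp from that of betaggt-I, which encodes a subunit of an enzyme that prenylates proteins. The peak had a signal of 2277.3 and ranked 22 in the optimal list, and 21, 20 and 26 in replicates 1, 2 and 3. mRpS10, a small-subunit gene with a bacterial counterpart, had a signal of 2182.4 (rank 24) and ranked 27, 23 and 22 in the replicates. Its summit lay 134 bp upstream of mRpS10 and 123 bp from the arginine methyltransferase gene Art3, so it was nearly midway. These places differed little between replicates, with a mean of -142 ± 9.61 bp from the mRpL24 TSS and -135 ± 3.61 bp from that of mRpS10 (SD, n = 3).

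Next in signal were mRpL41, mRpS23 and mRpL23, and after them the values dropped. mRpL41, for a large-subunit protein without a bacterial counterpart, had a signal of 1785.4 (rank 31) with ranks of 32, 31 and 40. Its summit at position 15217758 of arm 2R was 141 bp upstream of its own TSS and 621 bp from that of CG8079. mRpS23, a mitochondria-specific small-subunit gene, had 1579.7 (rank 38, replicates 42, 45 and 31), at 386 bp from its TSS and 106 bp from CenG1A, which encodes a GTPase-activating protein for Arf. mRpL23, a counterpart of a bacterial exit-tunnel protein, had 1225.6 (rank 60, replicates 66, 78 and 52), and its summit lay inside the gene, in the 5' UTR 68 bp downstream of the TSS. The 6th peak, at mRpS2, ranked 442 (signal 460.7, replicates 606, 362 and 497). Thus 5 bound members (17.2%) were among the 243 highest optimal peaks, where 7.58% of all bound genes had their peak, and 15 (51.7%) were in the upper 2438, beside 57.3% of all bound genes.

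**Figure D2:**
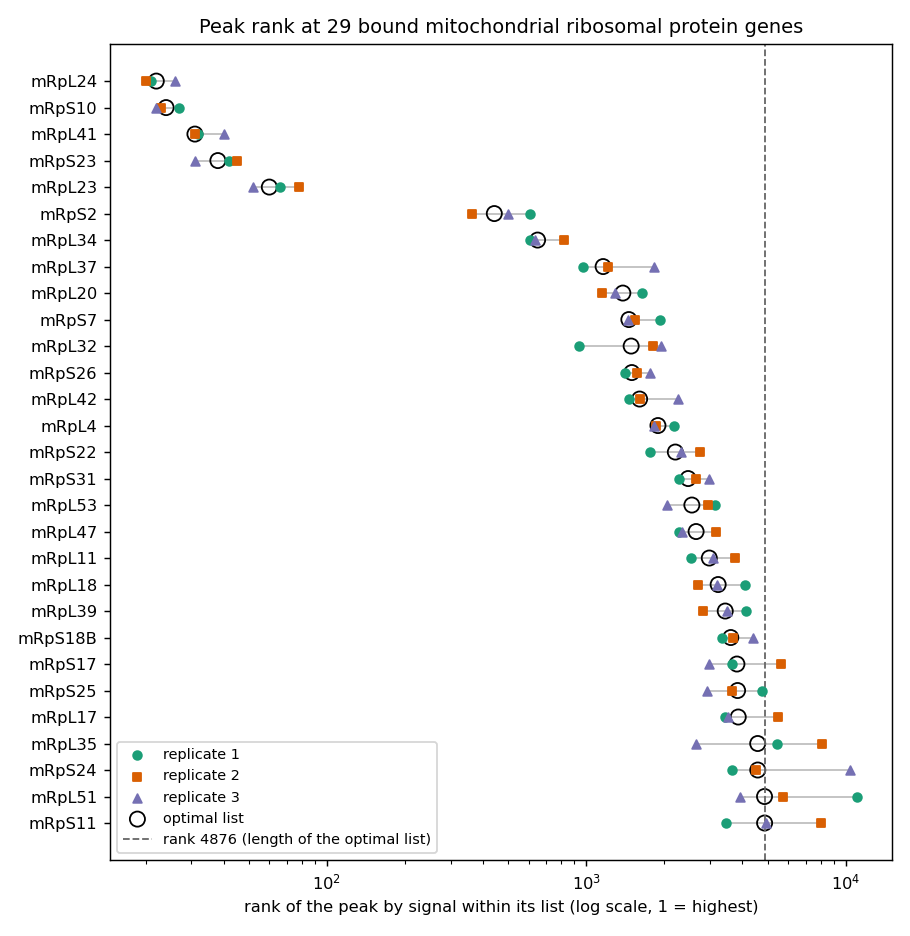
Ranks by signal (log scale) of the highest peak at each of the 29 bound members, in the optimal list (open circles) and at the nearest summit within 200 bp in replicates 1 to 3 (filled symbols), with a grey line from the lowest to the highest replicate. The first 5 members hold ranks from 20 to 78 in all replicates, and towards the bottom the symbols lie wider apart and on both sides of the dashed line at rank 4876.

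Of the other large-subunit genes, mRpL34 (signal 380.6, rank 649), mRpL37 (279.0, rank 1161) and mRpL20 (251.4, rank 1383) led. mRpL34 shares its upstream region with Dg, the gene of the matrix receptor dystroglycan, and its replicate ranks were 608, 823 and 636. mRpL37 had its highest peak 100 bp upstream of its own TSS, and this peak ranked 971, 1214 and 1829 in the replicates. mRpL20 lay nearer to Icmt, which encodes a methyltransferase of prenylated proteins. Then came mRpL32 (239.8), mRpL42 (226.8), mRpL4 (204.7), mRpL53 (165.9), mRpL47 (161.1), mRpL11 (147.7), mRpL18 (139.0), mRpL39 (133.0) and mRpL17 (121.3). mRpL35 (106.3) and mRpL51 (101.1) closed the list. In bacteria the counterparts of mRpL4 and mRpL11 line the exit tunnel and form the base of the stalk that binds translation factors, while mRpL37, mRpL39, mRpL41 and mRpL42 encode proteins found only in mitochondrial ribosomes. The replicate ranks of mRpL32 were 938, 1815 and 1936, so replicate 1 ranked it higher than the others did. The summit of mRpL42 lay 2 bp from its TSS, closest of all the member peaks, while that of mRpL47 was 9 bp from a TSS shared by CG8176 and the histone demethylase gene Kdm3.

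Of the other small-subunit genes, mRpS7 had a signal of 242.7 (rank 1459, replicates 1930, 1537 and 1447) and mRpS26 of 238.6 (rank 1498, replicates 1414, 1563 and 1763). mRpS7, whose bacterial counterpart binds ribosomal RNA in the head of the small subunit, shares its region with Cdk1, the mitotic kinase gene. mRpS22 had 2 summits, at 258 and 59 bp upstream, of signal 184.0 and 130.1. mRpS31 (169.5), mRpS18B (128.1), mRpS17 (122.7), mRpS25 (122.0), mRpS24 (106.3) and mRpS11 (101.0) followed. mRpS24 ranked 3629 and 4503 in replicates 1 and 2 and 10380 in replicate 3. mRpS11 was the only bound member with its summit in coding sequence, 68 bp downstream of its TSS.

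The replicates held most of these peaks too, which is partly built in, since the optimal list comes from the same 3 replicates. Of the 31 optimal peaks at members, 25 (80.6%) were supported by all 3 replicates, in each of which they overlapped one of the 4876 peaks of highest signal, beside 75.6% of the 2300 optimal peaks at promoters. Another 3 were supported by 2 replicates and 3 by 1, all of them at rank 3807 or lower in the optimal list. Those with 1 were the peaks at mRpL35 (replicate ranks 5413, 8100 and 2636), mRpL51 (11041, 5754 and 3921) and mRpS11 (3454, 7998 and 4918). The summit varied by an SD of at most 9.81 bp over the replicates at the 6 highest member peaks, and by a median of 43.3 bp at the other 25. Some of these lower peaks varied as little, namely those at mRpL17 (4.93 bp), mRpL4 (7.51 bp), mRpL47 (7.57 bp) and mRpS18B (8.33 bp). At mRpL37 and mRpS22, with 2 optimal peaks each, 1 summit of replicate 1 and 1 of replicate 2, respectively, was the nearest to both peaks, so the support and spread given for these peaks are not independent.

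Every one of the 29 bound members had a divergent neighbour, as did most bound genes of the genome (1896 of 2770). Such neighbours were common in the family, at 58 of 73 members (79.5%, interval 68.8 to 87.1%) and at 39.6% of all protein-coding genes. Of the 58 members with a divergent neighbour 29 were bound (interval 37.5 to 62.5%), beside 34.3% of all genes with one. Of the 15 members without one, 0 were bound, which allows a share of up to 20.0%, beside 10.4% of all genes without one. In replicate 3, mRpL13 was among the highest-signal peaks (rank 4163), so that 1 of these 15 had a summit there, and replicates 1 and 2 had 0. No 2 members were divergent neighbours of each other. The neighbour was protein-coding at all 29 bound members, which does not set them apart from unbound ones. Counting protein-coding neighbours only, 58 members still had one, beside 36.3% of all genes.

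The count of bound members was then split by the distance between the starts. Taking the closest pair of start sites, 5 of 18 members with at most 100 bp between the starts were bound (27.8%), beside 29.1% of all genes with such a distance. Above 100 and up to 300 bp the count was 10 of 15 (66.7%, interval 41.7 to 84.8%, beside 39.2%), above that and up to 500 bp it was 11 of 20 (55.0%, interval 34.2 to 74.2%, beside 43.2%) and beyond 500 bp it was 3 of 5 (beside 22.9%). The 3 in the last class are mRpL41, mRpL4 and mRpS25. If only neighbours within 500 bp are called divergent, these count as lacking one, and 3 of 20 such members were bound (15.0%), beside 12.1% of all genes.

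**Figure D3:**
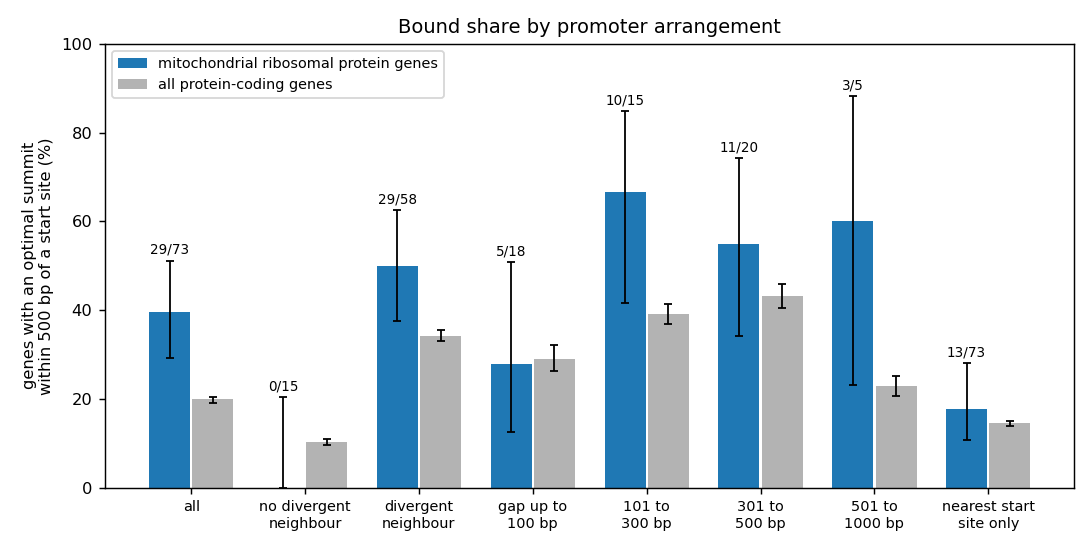
Share of genes with a summit of the optimal list no more than 500 bp from a start site, for members (blue, with counts) and all protein-coding genes (grey), by promoter arrangement and distance between the start sites. Error bars are 95% Wilson intervals; the members' bar is above the grey one with a divergent neighbour (29 of 58 and 34.3%) and at 0 without one (0 of 15), and both are close when each summit goes to its nearest start site only (17.8% and 14.5%).

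At 17 of the 29 bound members the divergent neighbour had the TSS nearer to the summit of the highest peak (58.6%), and at 12 the member had it. These calls use the optimal summit, and where it lay near midway they could change between replicates. At mRpL32 it was 136 bp from the member and 128 bp from qless, but replicate 1 had its summit at -86 bp, nearer to the member. At mRpS26 it was 211 bp from the member and 219 bp from CG13698, but replicate 3 had its summit at -281 bp, nearer to CG13698. Among all 1896 bound genes with a divergent neighbour, another gene's TSS was nearer in 43.0%, and the difference was not tested. The majority among members did not hold within 250 bp, where it was 11 of 24 bound members. That drop is partly built in, since the limit is on the distance to the member's own TSS. The members it removed (mRpS23, mRpS17, mRpS25, mRpL17 and mRpS24) all had the nearer TSS at the neighbour. The majority also did not hold with a summit within 100 bp in every replicate (10 of 21). The 12 members with the nearer TSS were mRpL41, mRpL23, mRpL34, mRpL37, mRpS26, mRpL42, mRpL4, mRpS31, mRpL53, mRpL39, mRpS18B and mRpS11, with mRpL53 sharing its TSS with CG33155. mRpS22 joined them by its second, weaker summit. Counting a summit for the gene with the nearest TSS alone left 13 of 73 members bound (17.8%, interval 10.7 to 28.1%), beside 14.5% of all genes. Among those with a divergent neighbour the shares were then 13 of 58 (22.4%) for members and 20.9% for all genes. The interval of the members' share thus held that of all genes once a summit was no longer counted for both genes of a pair. The data do not show which of both genes, if any, the bound protein acts on.

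The neighbours with the nearer TSS encode proteins of varied kinds. Besides betaggt-I, Art3, CenG1A and Icmt they are Mon1 (a factor for endosome maturation), Cdk1, CG5003, CG8176 with Kdm3, Nop60B (the pseudouridine synthase of ribosomal RNA), nmdyn-D6 (named for a nucleoside diphosphate kinase), Tudor-SN, Apc2 (of the Wnt pathway) and Uba4. Another 4, HtrA2, Taz, qless and Mitofilin, encode a mitochondrial protease, the cardiolipin enzyme tafazzin, an enzyme of coenzyme Q synthesis and an organiser of the inner membrane folds. The summit lay 25 bp from the HtrA2 TSS at mRpL11, 72 bp from Taz at mRpL18, 128 bp from qless at mRpL32 and 62 bp from Mitofilin at mRpL35. These 4 were singled out after their values were seen, and no count of such neighbours over the genome was made.

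**Figure D4:**
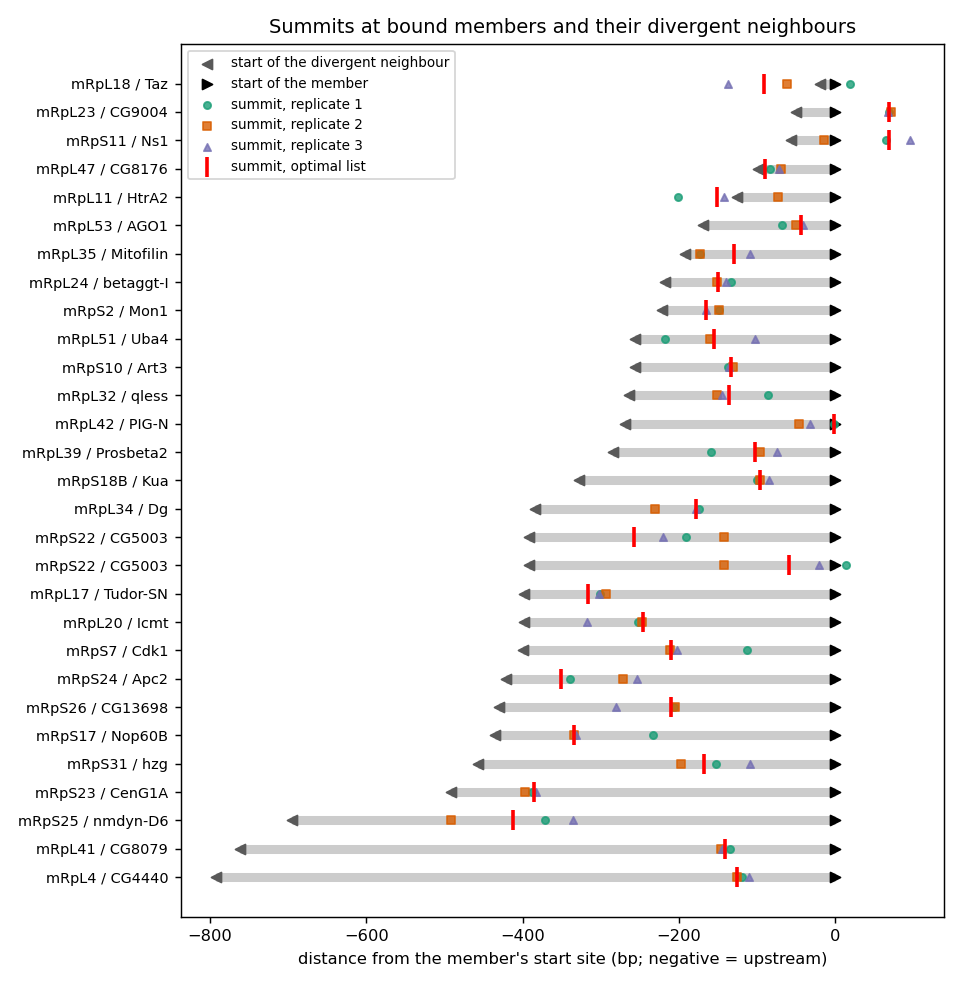
Summits of 29 optimal peaks at bound members (red bars, without mRpL37) and of the nearest replicate summits (coloured symbols), in bp from the member's TSS (black arrowhead), with the TSS of the divergent neighbour as a grey arrowhead and the stretch between them as a grey band. Of the 29 red bars 25 lie on a grey band. The replicate symbols cluster tightly at mRpL24, mRpS10, mRpL41 and mRpS23, and also at some lower peaks such as mRpL17 and mRpL4.

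Most summits lay in the stretch that both genes share. Of the 31 peaks 29 were upstream of the member's TSS, at a median distance of 150 bp over all 31, and 26 lay between the start sites of member and neighbour. Of the other 5, 2 lay inside the member, at mRpL23 and mRpS11, and 3 inside the neighbour, among them those at mRpL11 and mRpL18. Counting the highest peak only, 25 of 29 bound members (86.2%) had it between the starts, beside 82.4% of all bound genes with a divergent neighbour. By annotation 23 summits were intergenic, 6 in a 5' UTR, 1 in an intron and 1 in coding sequence. The upstream count, the distance and the annotation were not counted over all promoter peaks, so they are not shown to be particular to members.

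Base composition was compared between summits and flanks. In the 101 bases around a summit the median A+T content was 69.3%, from 45.5% at mRpL53 to 79.2% at mRpL23, and it was 52.5% in the flanks centred 300 bp away. It was higher at the summit than in the flanks at 29 of 31 peaks. At all 2300 promoter summits the medians were 67.3% and 55.9%. Of 10 motifs sought on both strands within 50 bp of the summit, TATAAA, the core of a classic promoter element, and CGATA, which the insulator protein BEAF-32 recognises, were at 6 of 31 summits each, beside 23.5% and 20.3% of all promoter summits. TAATTA (homeodomain core) was at 4 (9.96% of all), the DRE core TATCGAT, which always holds CGATA on its other strand, was at 2 (6.22%), those of mRpS17 and mRpL17, and TCAGTT (initiator) at 2 (5.96%). GGTCACA (M1BP), CAGCNCT (core promoter motif 7) and GAGAG (Trl) were at 1 each (2.09%, 6.65% and 8.17%), and CACGTG (E-box, 1.00%) and CGCATGC (Ewg, the fly relative of the vertebrate factor NRF-1, 0.478%) at 0. In the flanks of member peaks TATAAA was found at 8, CGATA at 5 and TAATTA at 1, beside 6, 6 and 4 at the summits. Over all promoter peaks the flanks held these motifs in 11.6%, 14.8% and 5.26% of cases. Differences between members and all promoter peaks were not tested. The remaining motifs had 0 to 3 member flanks each. A match of letters does not show that the factor binds there.

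Bound members were found on each of the large chromosome arms. On 2L 7 of 12 members were bound (19.8% of all genes there), on 2R 6 of 12 (18.5%), on 3L 6 of 17 (21.1%) and on 3R 9 of 21 (21.4%). On X it was 1 of 11 (9.09%, interval 1.62 to 37.7%), namely mRpS25, beside 18.1% of all genes on X. Of these 11 members 9 had a divergent neighbour, so 1 of 9 was bound, beside 27.9% of all genes on X with one. Differences between arms were not tested. The highest candidates of the other X members, named after their values were seen, were at mRpL16 (pooled rank 5885), mRpS30 (8655), mRpL33 (9379) and mRpL3 (18752), and the remaining 6 had none in the pooled list.

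Of the 53 members with a pooled candidate at the promoter 29 were bound (54.7%), beside 44.2% of all genes with one. The other 24 were among the 44 unbound members. After mRpS21 and mRpL13 the highest, also named after their values were seen, were mRpL21 (signal 87.1), mRpL16 (86.9), mRpL27 (85.9), mRpL1 (84.3), mRpL43 (83.6) and mRpS16 (81.9). Of the unbound members 40 were among the 4876 highest-signal peaks of no replicate, 3 of 1 replicate and 1 of 2, and 0 of all 3, whereas 23 bound members were among those of all 3. This contrast is partly built in, since the optimal list comes from the same 3 replicates, and the split was not made for all genes. mRpL21 was the one with 2, at ranks 4471 and 4461 in replicates 1 and 2 and with no candidate in replicate 3. No candidate in any of the 4 candidate lists was found at 9 members (12.3%), beside 38.1% of all genes, and 5 of these 9 had a divergent neighbour.

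The same rule was applied to other nuclear genes of mitochondrial translation and gene expression. Of 37 genes, made up of translation factors, aminoacyl-tRNA synthetases, transcription and replication factors and both ribosomal protein genes with other names, 5 were bound (13.5%, interval 5.91 to 28.0%). They were mtSSB, for the DNA-binding protein of mitochondrial replication (signal 337.2, rank 819), mTerf5, for a factor of the transcription terminator family (153.5), and the synthetase genes ProRS-m (118.7), CysRS-m (109.9) and LeuRS-m (101.3). tko and bonsai, which encode the ribosomal proteins S12 and S15 of the mitochondrion, had no optimal summit at the promoter, and tko had a pooled candidate of rank 17716. A divergent neighbour was present at 20 of the 37, of which 4 were bound (20.0%), and 1 of the other 17 was bound.

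The genes of the cytosolic ribosome, drawn by symbol so that a few belong to other families, were scored in the same way. Of 91 such genes 55 were bound (60.4%, interval 50.2 to 69.9%), and 49 (53.8%) when only the nearest TSS counted, where the mitochondrial set had 17.8%. Without a divergent neighbour 15 of 34 cytosolic genes were bound (44.1%, interval 28.9 to 60.5%), where the mitochondrial set had 0 of 15. With one it was 40 of 57 (70.2%), where the mitochondrial set had 29 of 58. Genes of respiratory complex I (symbols starting ND-) were bound in 9 of 40 cases (22.5%) and in 4 when only the nearest TSS counted. Of the 16 complex I genes without a divergent neighbour, 1 was bound (6.25%), so a low share there is not particular to the members. Differences between these sets were not tested.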

How the data were processed

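The files used are lists of ChIP-seq peaks on the dm6 build. Per the deposited README files, the authors made 1 list per replicate from its own alignment with a control and a pooled list from all 3 alignments with the control. They chose the optimal list out of these 4 by the irreproducible discovery rate. Aligner, peak caller, limits and read totals remain unknown, being not given in the sources used here. Control data were not analysed here. The peak signal is deposited by the authors on each list's own scale, so peaks were ranked within a list. The deposited lists on dm3 were not analysed here.

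Gene models came from Ensembl release 115 for the same assembly and sequence from the RefSeq genome (99.9% of 16213 annotated start codons read ATG in it). Transposable elements and pseudogenes were left out. The summit is the peak start plus the deposited offset. A start-to-start distance at a peak uses the start sites nearest to the summit, and classes of distance use the closest pair. Motif flanks offered as many positions as the summit windows, on both sides at 300 bp. No test was made, since there is 1 group and 3 replicates, and members are described beside all protein-coding genes. The replicates come from 1 line. Members, lists and motifs were chosen with earlier results of these data known. The rule for named genes took all bound members, unbound members among the highest-signal peaks of all 3 replicates or with an optimal summit up to 1000 bp away, the owners of the nearest start sites and the bound genes of the other mitochondrial list. Other genes are said in the text to have been named after their values were seen, or lie just outside a limit. One neighbouring gene is not reported here. Steps were tested on simulated data. The tools were Python (3.11.15) with pandas (2.3.3), SciPy (1.17.1), NumPy (2.4.6) and, for plots, matplotlib (3.10.9).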

Additional observations from a re-analysis of the deposited data

How the results depend on the processing

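The count of 29 bound members was 24 within 250 bp (15.6% of all genes), 29 within 1000 bp (22.9%) and 29 with peak midpoints or with only the 5' end of each gene. Midpoints were the same as the summits at most member peaks, so that setting hardly differs from the main one. The count was 23 with peaks that every replicate supports (15.1% of all genes) and 21 where every replicate had a summit within 100 bp (14.1%). Asking for support from 2 replicates, without regard to the other, gave 23 to 25 bound members (16.0% to 16.8% of all genes). Of these 14 to 15 were large-subunit and 9 to 10 small-subunit genes, and 12 to 14 had the nearer TSS at a neighbour. With the nearest TSS only 12 were bound, and the median signal was 226.8 to 238.6. The peaks and signals still came from all 3 replicates pooled, so no replicate was wholly left out and the count of bound members could not rise. The 2438 highest-signal optimal peaks alone gave 15 bound members (11.4% of all genes), all 15 with a divergent neighbour, of which 9 were large-subunit and 6 small-subunit, 8 with the nearer TSS at a neighbour, 7 with the nearest TSS only and a median signal of 279.0. These lower counts follow from the smaller number of peaks. The neighbour had the nearer TSS at 11 of the 24 members bound within 250 bp. That limit on the distance to the member takes out summits nearer to the neighbour, so the lower count is partly built in. With a summit within 100 bp in every replicate the neighbour had it at 10 of 21, so the majority (17 of 29) held in neither setting. With 2438 peaks a replicate the mean was 16.0 members (11.5% of all genes), and with all candidates it was 53.0 (46.5%).

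For bound members without a divergent neighbour all alternatives were added after seeing the data. Most of them only remove peaks or start sites from a set that already held 0, so their 0 says nothing about stability. A promoter distance of 1000 bp, which could have added some, also gave 0. Peak midpoints gave 0 too, but at most member peaks the midpoint was the summit itself, so that setting could add little. Calling only neighbours within 500 bp divergent gave 3, and the highest-signal peaks of replicate 3 gave 1 of 15. With 500 bp 53 members had such a neighbour (29.8% of all genes), and with protein-coding neighbours only 58 (36.3%). Within 100 bp of the summit CGATA and TATAAA were at 13 of 31 summits each (35.7% and 39.6% of all promoter summits, and 10 and 9 member flanks) and TATCGAT at 5 (12.4%, and 4 member flanks). No paired analysis was possible because there is 1 group and no contrast. Unknown depth limits what the absence of a peak can show.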
